A study of Homo sapiens with 2 samples.

Results

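Cytosolic ribosomal protein genes were taken as all genes whose symbol is RPL or RPS followed by a number, with an A or X where one follows, or by P0, P1 or P2 as in the stalk proteins. RefSeq lists 76 such symbols, 46 for the large and 30 for the small ribosomal subunit. In these data 57 of the 18417 genes measured on a sequence with a single gene symbol met the rule, 36 of the large and 21 of the small subunit. Where a gene had several such sequences, the one with the highest mean level over both arrays was used. Of the other 19 symbols, 11 lay only on sequences that name several genes and are given apart, and 8 were not analysed here.

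The study asked how the coiled-coil part of laminin-111, a basement membrane glycoprotein, acts on tumor cells. HT1080 cells, an established human fibrosarcoma line, were kept for 24 h in serum-containing medium in wells coated with rLCC111 at 1 µg per well, or in wells coated with BSA as the control. rLCC111 is a recombinant, tagged heterotrimer of truncated mouse laminin α1-, β1- and γ1-chains, secreted by transfected human embryonic kidney cells. Each coating gave 1 GeneChip Human Gene 1.0 ST array from 1 cell line, so no difference below has a replicate check and no p-value can be given. Values are log2 expression levels, and each difference is the level on rLCC111 minus the level on BSA, so a negative value means lower on rLCC111.

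Each ribosome is built from ribosomal RNA and a fixed set of ribosomal proteins, most of them in equal numbers, with RNA polymerase I making most of the ribosomal RNA in the nucleolus. The mRNAs of ribosomal proteins are among the most plentiful of growing cells, and most begin with a C followed by a run of pyrimidines, the 5′ terminal oligopyrimidine (TOP) tract. Through this tract the TOR kinase pathway sets how well these mRNAs are translated, so their protein output can change at constant mRNA level, which is all that the arrays measure.

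The array medians were 7.12 on rLCC111 and 7.04 on BSA. The highest level of any sequence was 13.92 on rLCC111 and 13.89 on BSA. As a limit of silent genes the 95th percentile of the mean level of 379 sensory receptor genes was used, at 6.62. All 57 ribosomal protein genes exceeded it on both arrays, as did 66.9% of all genes. The mesenchymal markers VIM (12.98 on rLCC111 and 13.05 on BSA) and CD44 (13.11 on rLCC111 and 13.10 on BSA) were high, and both arrays exceeded the limit for 8 of 10 markers of this kind. Both arrays also exceeded it for 4 of 8 epithelial, 1 of 6 endothelial, 1 of 4 measured blood and 2 of 6 neural markers, while EPCAM and PTPRC were below it on both. Well above it were the epithelial KRT18 (11.51 on rLCC111 and 11.64 on BSA) and KRT8 (11.15 and 11.22). So were the endothelial TIE1 (10.39 and 10.55) and the neural NEFL (9.97 and 10.39). The mesenchymal markers THY1 and S100A4 were below the limit on both arrays. The part of these markers in the results was not tested.

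Ribosomal protein genes were slightly lower on rLCC111, and no member was 2-fold different. Of the 57 genes, 48 had a difference below 0 and 9 above 0, with a median of -0.073, a fold of 0.951. Across all genes 46.6% had a difference below 0 and 46.2% above 0, with a median of 0. A change of at least 2-fold was seen for 0.239% of all genes in the higher and 0.0869% in the lower direction. In RNA from a whole culture, less mRNA per cell and a different make-up of the cells cannot be told apart.

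Part of this shift was shared by other genes with strong signals. The 1295 non-ribosomal genes at or above a mean level of 11.12, the lower quartile of the members, had a median difference of -0.051, and 65.2% of them were below 0. The median of the ribosomal protein genes lay -0.022 from that of this set, a distance with no test. The interquartile range was 0.073 for the ribosomal protein genes and 0.168 for the non-ribosomal set. Differences within 0.1 of 0 were found for 39 of the 57 members, against 54.8% of all genes and 52.1% of the non-ribosomal set. The plot of levels by gene shows how close the 2 arrays lay for each member.

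**Figure D1:**
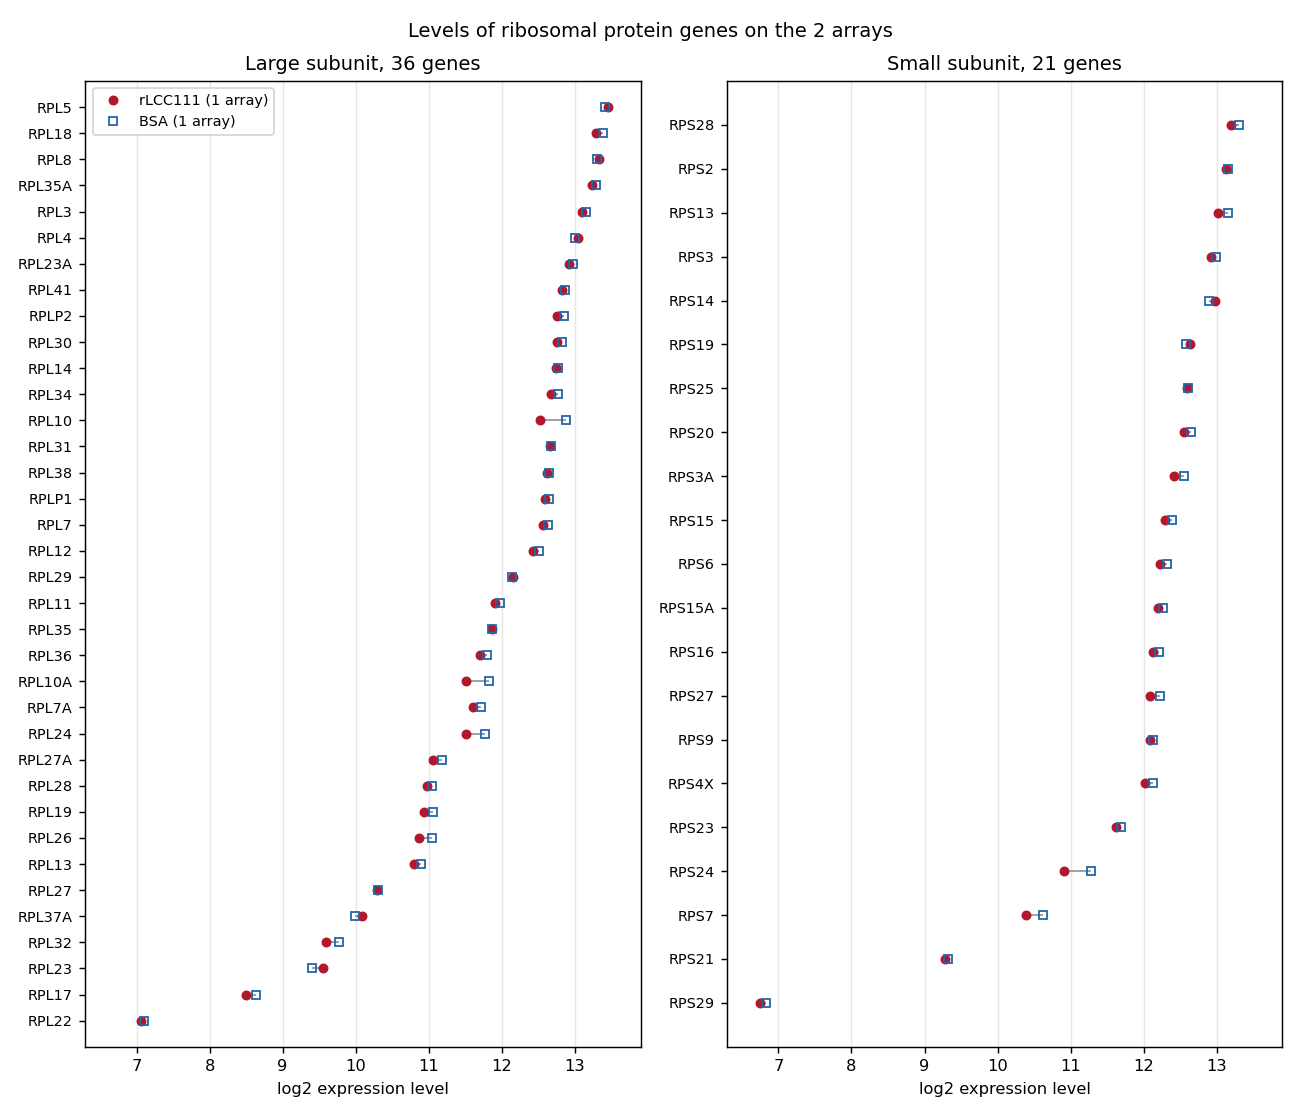
Log2 expression level of each ribosomal protein gene (horizontal axis) on the rLCC111 array (filled circles) and the BSA array (open squares), with 36 large subunit genes at left and 21 small subunit genes at right, ordered by mean level; each point is 1 array and there are no error bars. Levels ran up to 13.46 for RPL5, and only a few genes, among them RPL10, RPL10A, RPL24, RPS24 and RPS7, have symbols that stand clearly apart.

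On rLCC111, 4 members were lower by at least 0.25 and 0 were higher by as much, against 6.53% and 7.49% of all genes and against 7.34% and 3.32% of the non-ribosomal genes at the members' levels. RPS24, a protein of the small subunit that is mutated in some families with Diamond-Blackfan anaemia, had a level of 10.91 on rLCC111 and 11.29 on BSA. Its difference of -0.37 (0.771-fold) was the lowest of all members. RPL10, one of the last proteins to join the large subunit, had 12.52 on rLCC111 and 12.87 on BSA, a difference of -0.35 (0.785-fold). RPL10A, the protein of the mobile L1 stalk past which used tRNA leaves, had 11.51 on rLCC111 and 11.82 on BSA, a difference of -0.31 (0.806-fold). RPL24, which helps to bridge the subunits, had 11.50 on rLCC111 and 11.78 on BSA, a difference of -0.27 (0.828-fold). These 4 genes come from both subunits and from different sites of the ribosome. RPS7 came next, at 10.39 on rLCC111 and 10.63 on BSA, a difference of -0.24 (0.847-fold).

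The sequence around the annotated transcription start of these 5 genes is shown with those of RPL37A and RPS14, 2 genes with a difference above 0, because the tract at the start is the element that links ribosomal protein mRNAs to one another. Each run holds 15 bases before and 15 bases from the start, on the transcribed strand of GRCh38.p14 (RefSeq), with the longest tract of a C followed by at least 4 bases that are C or T in capitals.
RPS24, chr10:78033848-78033877, plus strand: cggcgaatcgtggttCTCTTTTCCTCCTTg
RPL10, chrX:154398362-154398391, plus strand: caggcggaggagcgCCTCTTTCCCTTCggt
RPL10A, chr6:35468386-35468415, plus strand: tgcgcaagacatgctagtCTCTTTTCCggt
RPL24, chr3:101686704-101686733, minus strand: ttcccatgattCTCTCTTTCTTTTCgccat
RPS7, chr2:3575245-3575274, plus strand: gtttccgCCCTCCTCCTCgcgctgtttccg
RPL37A, chr2:216498829-216498858, plus strand: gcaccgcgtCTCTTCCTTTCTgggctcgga
RPS14, chr5:150449725-150449754, minus strand: ccgccccctcccaCTCTCTCTTTCCggtgt
The tract was 14 bases long in RPS24 and began exactly at the start, whereas in RPL10A it began 3 bases after it. Both genes with a difference above 0 had a tract of the same length, 12 bases, that ran across the start.

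RefSeq start sequences were at hand for 48 of the 57 members. In 45 of the 48 (93.8%) the window held such a tract on the transcribed strand, against 46.4% of 15757 other protein-coding genes and 44.1% of all 27305 genes of the table. A C at an annotated start base followed by 4 pyrimidines was found in 36 of 48 members (75%), against 5.95% of the other protein-coding genes and 5.14% of all genes. The share was 76.7% in the large and 72.2% in the small subunit. The 36 members with a C and tract at the start had a median difference of -0.071, with 31 below 0. The 12 without had a median of -0.107, with 11 below 0, and the 9 members outside the table had a median of -0.059. The difference between these sets was not tested.

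The subunits were set against each other next. In the large subunit 29 of 36 genes were below 0, with a median of -0.063 (0.958-fold) and an interquartile range of 0.077. In the small subunit 19 of 21 genes were below 0, with a median of -0.087 (0.942-fold) and an interquartile range of 0.064. The large subunit median was 0.024 above that of the small subunit. With 1 array per coating this difference has no test. The median of the mean level was close in the subunits, at 12.31 in the large and 12.28 in the small subunit. A mean level of at least 12 was found for 16 of 21 small and 19 of 36 large subunit genes. Among genes at or above that level the median was -0.053 in the large and -0.086 in the small subunit. Among those below it the median was -0.096 in the 17 large and -0.087 in the 5 small subunit genes. The order of the medians was thus the other way there, but this rests on 5 small subunit genes and was not tested.

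**Figure D2:**
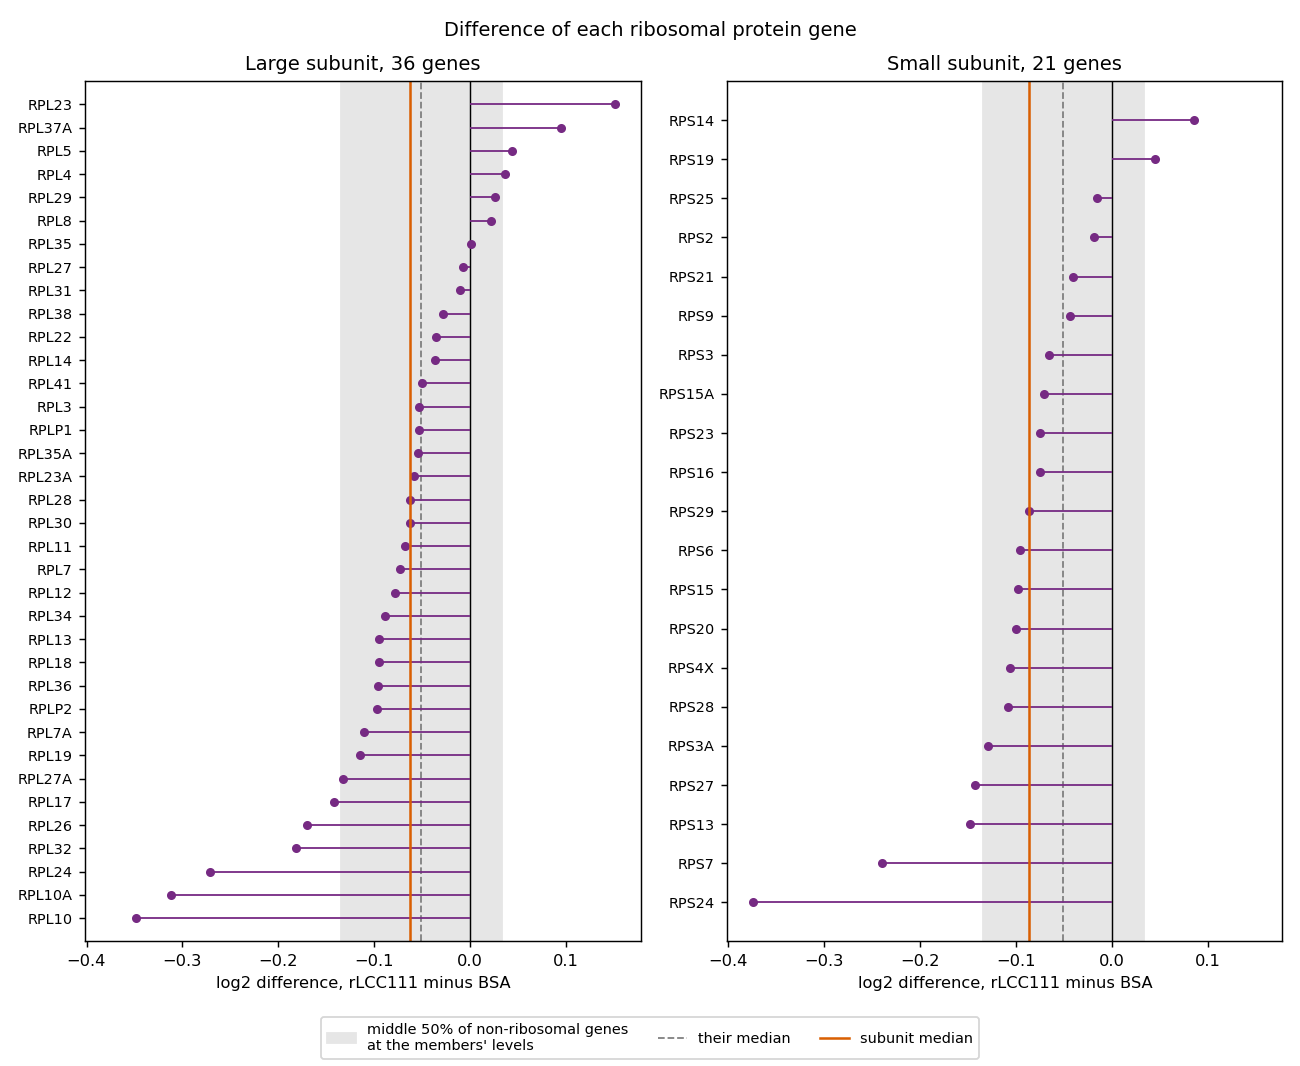
Log2 difference of each ribosomal protein gene, rLCC111 minus BSA (horizontal axis), for 36 large and 21 small subunit genes, each from 1 array per coating; the orange line is the subunit median, the dashed line and grey band are the median and middle 50% of the 1295 non-ribosomal genes at the members' levels. Most points of both subunits fall between -0.15 and 0, and the subunit medians of -0.063 and -0.087 lie inside the grey band.

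In the large subunit the lowest differences after RPL10, RPL10A and RPL24 were those of RPL32 and RPL26. RPL32 had 9.59 on rLCC111 and 9.77 on BSA, a difference of -0.18. RPL26, which lies by the exit of the peptide tunnel, had 10.87 on rLCC111 and 11.04 on BSA, a difference of -0.17. At the other end RPL23, a protein of the face between the subunits that can also bind MDM2, had 9.56 on rLCC111 and 9.40 on BSA. Its difference of 0.15 (1.11-fold) was the highest of all members. RPL37A, a zinc-finger protein, had 10.09 on rLCC111 and 9.99 on BSA, a difference of 0.095. The next ones, RPL5 at 0.043, RPL4 at 0.037 and RPL29 at 0.026, were smaller than the difference of 0.079 between the array medians.

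In the small subunit the lowest differences after RPS24 and RPS7 were -0.15 for RPS13, -0.14 for RPS27 and -0.13 for RPS3A. RPS13 had 13.01 on rLCC111 and 13.16 on BSA, with one of the strongest signals of the whole array. Only RPS14 and RPS19 were above 0. RPS14, a platform protein whose gene lies in the segment lost in the 5q- syndrome, had 12.98 on rLCC111 and 12.89 on BSA, a difference of 0.086. RPS19, the gene most often mutated in Diamond-Blackfan anaemia, had 12.63 on rLCC111 and 12.58 on BSA, a difference of 0.045.

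The sites of the ribosome not yet described follow by role. In the stalk that recruits the translation GTPases, RPLP1 had 12.59 on rLCC111 and 12.64 on BSA, a difference of -0.053. RPLP2 had a difference of -0.097 and RPL12, which anchors the stalk, one of -0.079. All 3 were thus lower on rLCC111 by less than 0.1. RPL5 and RPL11 carry the 5S ribosomal RNA into the large subunit and bind MDM2 when free. RPL5 had 13.46 on rLCC111 and 13.42 on BSA, a difference of 0.043, and RPL11 had 11.91 on rLCC111 and 11.97 on BSA, a difference of -0.068. The pair thus lay on opposite sides of 0. Of the proteins that line the peptide tunnel, RPL4 had 13.040 on rLCC111 and 13.003 on BSA, a difference of 0.037. RPL17, at the tunnel exit, had 8.49 on rLCC111 and 8.63 on BSA, a difference of -0.14. RPS2, RPS3 and RPS9, which surround the entry of the mRNA channel, had differences of -0.019, -0.066 and -0.044. RPS6, the substrate of the S6 kinases downstream of TOR, had 12.23 on rLCC111 and 12.33 on BSA, a difference of -0.096. Mutations in 15 of the members are listed as causes of Diamond-Blackfan anaemia. Of these 15, 12 were below 0, with a median of -0.071, against 36 of the 42 other members, with a median of -0.074.

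The sign of a small difference depended on how the arrays were put on 1 scale. Under the values as deposited, median centring, quantile normalization and removal of the trend on level, 43 members were below 0 each time, 26 of the large and 17 of the small subunit. Above 0 each time were 3 members, RPL23, RPL37A and RPS14, while 11 changed sign. The distance of the members' median to that of the non-ribosomal genes at their levels lay between -0.030 and -0.022 in these 4 settings. After median centring, quantile normalization and removal of the trend, 54, 45 and 43 of the 57 members were below 0. Of the 1295 non-ribosomal genes at their levels, 1090, 752 and 692 were.

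The signals of most members were near the top of the scale, where an array can answer less than in proportion to the mRNA. A level on this array depends on the probes of each gene as well as on its mRNA, so levels were not compared between genes as amounts of mRNA. The quartiles of the members' mean level were 11.12, 12.28 and 12.79, against a median of 7.81 over all genes. The median member lay 1.64 below the highest level on the arrays. Members made up 0.903% of the genes with a mean level of 11 to 12, 7.14% of those at 12 to 13 and 18.0% of those at 13 to 14. Of the 57 members, 12 were among the 333 sequences that form the top 1% by level, at or above 12.86. The brightest 5 were RPL5 (13.44), RPL18 (13.34), RPL8 (13.31), RPL35A (13.26) and RPS28 (13.25), by mean level of both arrays. Their differences ran from -0.11 for RPS28 to 0.043 for RPL5. The dimmest 5 were RPS29 (6.78), RPL22 (7.08), RPL17 (8.56), RPS21 (9.30) and RPL23 (9.48), by mean level. Their differences ran from -0.14 for RPL17 to 0.15 for RPL23, a wider span than at the bright end. RPL17 was dim on the sequence of its own only. The brighter sequence that also names RPL17-C18orf32 had 12.43 on rLCC111 and 12.54 on BSA, a difference of -0.11. RPS29, at 6.74 on rLCC111 and 6.83 on BSA, was the member nearest to the limit of silent genes.

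Differences of non-ribosomal genes were widest at middle levels and narrower at both ends of the scale. Their interquartile range was 0.074 at a mean level of 3 to 4, 0.086 at 4 to 5, 0.125 at 5 to 6, 0.158 at 6 to 7, 0.180 at 7 to 8 and 0.216 at 8 to 9. It was 0.217 at a mean level of 9 to 10, 0.204 at 10 to 11, 0.177 at 11 to 12, 0.160 at 12 to 13 and 0.087 at 13 to 14. The last of these bins held 40 genes. From a level of 10 upwards the spread thus fell from bin to bin. In the members the interquartile range was 0.167 for the 10 genes at 11 to 12 and 0.059 for the 26 genes at 12 to 13. It was 0.117 for the 9 genes at 13 to 14, so the members' spread had no steady trend across these small bins. At 12 to 13, where most members lie, their spread of 0.059 was below the 0.160 of the 337 non-ribosomal genes of the same level. The part of saturation in the narrow spread of the members was not tested.

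**Figure D3:**
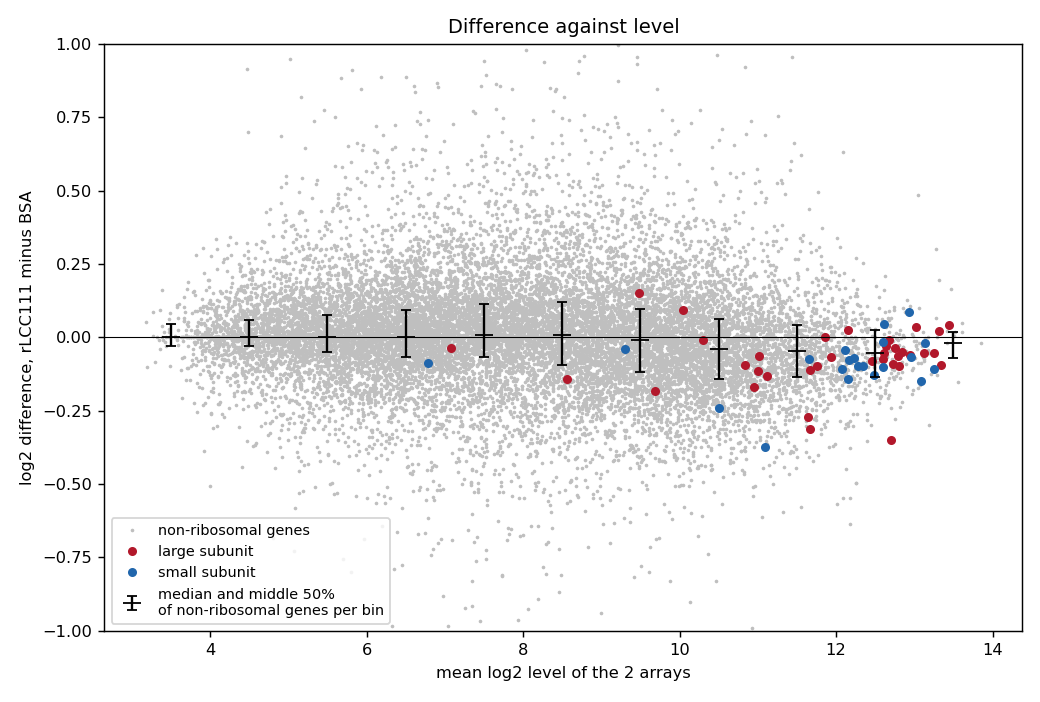
Log2 difference, rLCC111 minus BSA, against the mean log2 level of both arrays for large subunit genes (red), small subunit genes (blue) and non-ribosomal genes (grey); black marks give the median and middle 50% of the non-ribosomal genes in bins 1 log2 wide, and 60 non-ribosomal genes lie outside the vertical range. The bars are longest at middle levels and shorten to both sides, and most members sit at the right, just below 0.

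The members were also narrower at high signal when split at a level of 12. The 22 members below it had a median of -0.095 and an interquartile range of 0.116, and the 35 at or above it had a median of -0.063 and an interquartile range of 0.073. Of the 22 dimmer members 3, RPS24, RPL10A and RPL24, but only RPL10 among the 35 brighter ones, were past 0.25 in size. In non-ribosomal genes at or above a level of 12, 30 of 377 (7.96%) were past 0.25, and 5 were past 0.5. The largest of them, in MALAT1 and SNORD33, crossed a level of 12 between the arrays and so lay at the lower edge of this range. MALAT1, a nuclear noncoding RNA, had 12.40 on rLCC111 and 11.77 on BSA, a difference of 0.63. SNORD33, a small nucleolar RNA, had 11.86 on rLCC111 and 12.49 on BSA, a difference of -0.64. Over the 57 members the size of the difference and the mean level had a Spearman correlation of -0.324 and a Pearson correlation of -0.170. This describes genes on 1 pair of arrays, which share both cultures and the scaling.

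Sequences of the same gene that differ in level allow a look at level that does not mix genes. Of the 57 members, 21 had more than 1 sequence of their own, and in 13 of these the brightest and dimmest were at least 1 log2 unit apart. The difference was larger in size on the dimmest sequence in 8 of the 13. The median size was 0.077 on the dimmest and 0.079 on the brightest sequences. In 6 of the 13 the signs were opposite, so that sizes cannot be read as one change seen at 2 levels there, and some of the brightest sequences, such as that of RPS7 at a mean level of 10.51, were not near the top of the scale. RPL12 had the larger difference at the lower level: its dimmest sequence had 8.11 on rLCC111 and 8.33 on BSA, a difference of -0.22, against -0.079 on its brightest. RPL13 had -0.17 on its dimmest and -0.095 on its brightest sequence, and RPS9 had -0.12 and -0.044. In RPS7 the order was the other way, with -0.051 at 9.08 on rLCC111 and 9.13 on BSA, and -0.24 on the brighter sequence. RPS3A likewise had -0.024 on its dimmest and -0.13 on its brightest of 5 sequences, and RPL41 had -0.011 and -0.051.

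The signs differed for RPL34, which had 0.099 on its dimmest sequence, at 7.84 on rLCC111 and 7.74 on BSA, and -0.089 on the brightest. They also differed for RPL27A (0.084 and -0.13), RPL14 (0.077 and -0.036), RPL31 (0.050 and -0.010) and RPS15 (0.0018 and -0.098), with the dimmest sequence above 0 in each. RPL29 was the reverse, with -0.14 on the dimmest and 0.026 on the brightest. RPL5 alone of the 21 was above 0 on all of its 3 sequences, at 0.051 on the dimmest and 0.043 on the brightest.

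**Figure D4:**
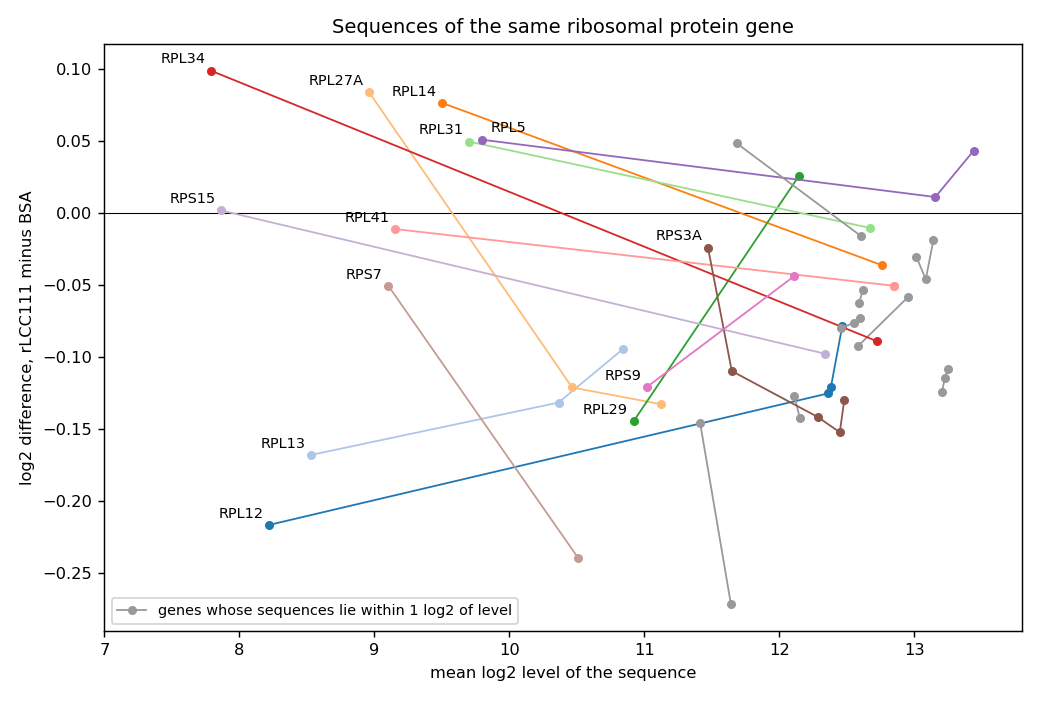
Log2 difference, rLCC111 minus BSA, against the mean log2 level of both arrays for the sequences of the 21 ribosomal protein genes with more than 1; points are sequences, lines join those of a gene, and named genes have sequences at least 1 log2 unit apart. Lines run both up and down with level, and the short grey ones on the right are nearly level except for RPL24 and RPS25.

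Sequences of like level repeated one another more closely. In the 8 genes whose sequences lay within 1 log2 unit, the change between the dimmest and the brightest had a median of 0.016 and reached 0.13, against a median of 0.106 and a maximum of 0.22 in the 13 others. RPS28 had -0.11, -0.11 and -0.12 on its 3 sequences, and RPL7 had -0.073, -0.076 and -0.080. RPLP1 had -0.053 and -0.063, RPS27 had -0.14 and -0.13, RPL23A had -0.059 and -0.093, and RPS2 lay between -0.046 and -0.019. RPL24 had the widest gap of these 8, at -0.27 on its brightest and -0.15 on its other sequence, and RPS25 was the only one with both signs, at -0.016 and 0.048. Such sequences may share probes and come from the same RNA, so their likeness measures the probes and not the cultures. RPL41 had 2 sequences with identical values on both arrays.

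Sequences that name several genes mix the signals of those genes. Only there were 11 genes of the family measured, and 10 of the 11 were below 0, with a median of -0.047. Below 0 were 46.6% of all genes and 65.2% of the non-ribosomal genes at the members' levels. RPL21 had the lowest value, at 11.29 on rLCC111 and 11.51 on BSA, a difference of -0.22, and its 5 sequences ranged from -0.27 to -0.20. These sequences also name pseudogenes of RPL21. RPS18 was the only one above 0, at 12.02 on rLCC111 and 11.91 on BSA, a difference of 0.12, on 3 sequences with identical values. RPL39, a short protein of the tunnel wall, had 12.07 on rLCC111 and 12.11 on BSA, a difference of -0.039. RPL10 was also present on 4 sequences that name other genes, and its difference there was -0.059, 0, -0.19 and -0.16, each closer to 0 than the -0.35 of the sequence of its own.

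Many introns of ribosomal protein genes hold small nucleolar RNAs (snoRNAs), which guide modification of ribosomal RNA and are freed from the spliced intron. RefSeq places 41 snoRNA genes inside 20 of the members, of which 18 in 12 hosts were measured on a sequence that names no other gene. Of these 18, 16 were above 0 and 2 below, with a median of 0.082, while 10 of their 12 hosts were below 0, with a median of -0.072. Of the 174 other snoRNA genes measured, 54.0% were above 0, with a median of 0.016. Any snoRNA genes inside the 19 symbols of the family that are not members were not set apart from these. SNORD43, in RPL3, had 9.85 on rLCC111 and 9.26 on BSA, a difference of 0.59, against -0.053 for its host. SNORD15B, in RPS3, had a difference of 0.45, and SNORD21, in RPL5, had one of 0.34. The lowest of the 18 were SNORA3B, in RPL27A, at -0.14, SNORD15A, in RPS3, at -0.0088, and SNORD4B, in RPL23A, at 0.0049. Some other snoRNA genes of members lay only on sequences that also name the host, which mix both signals and were not counted. Differences there ran from -0.48 for SNORD24 with RPL7A to 0.59 for SNORD73A with RPS3A. The count above 0 was 15 of 18 after removal of the trend on level, 12 of 18 after quantile normalization and 9 of 18 after median centring. Of the 174 other snoRNA genes, 48.3%, 43.1% and 37.4% were above 0 in the same settings. Array sequences of genes this short rest on few bases, and the strand of the snoRNA genes was not checked.

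Paralogs that replace a ribosomal protein in some tissues or states were measured for 8 genes. Their median was -0.058, and 5 of 8 were below 0, against 46.6% of all genes. The median was -0.14 after median centring and -0.017 after removal of the trend on level. RPL22L1, the paralog of RPL22, had 8.34 on rLCC111 and 8.70 on BSA, a difference of -0.36, against -0.036 for RPL22 itself. RPL26L1 had 10.43 on rLCC111 and 10.70 on BSA, a difference of -0.28, against -0.17 for RPL26. Both were thus lower on rLCC111 by more than their namesakes, which was not tested. RPL22, at 7.06 on rLCC111 and 7.10 on BSA, was among the dimmest members and not far above the limit of silent genes. The other 6 were RPL10L (-0.090), RPL7L1 (-0.061), RPL36AL (-0.055), RPL3L (0.041), RPS27L (0.095) and RPL39L (0.26), the last of them below the limit of silent genes on both arrays. FAU, which encodes the small subunit protein eS30 fused to a ubiquitin-like protein, had 10.94 on rLCC111 and 11.04 on BSA, a difference of -0.10.

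Other mRNAs with a TOP tract were measured for 18 of 21 listed genes. Of these, 11 were below 0, against 65.2% of the non-ribosomal genes at the members' levels, with a median of -0.026 for the list. After removal of the trend on level the median was 0.010, with 9 of 18 below 0. Of the 1295 non-ribosomal genes at the members' levels, 692 were below 0 in that setting. After median centring the list's median was -0.11, with 17 of 18 below 0, against 1090 of those 1295 genes. The lowest was EIF3E, an initiation factor subunit, at 10.28 on rLCC111 and 10.56 on BSA, a difference of -0.28, followed by EEF1D at -0.14 and NAP1L1 at -0.12. The highest was HNRNPA1, an RNA-binding splicing factor, at 7.28 on rLCC111 and 7.03 on BSA, a difference of 0.25, followed by EIF3L at 0.067 and EIF4B at 0.030. The elongation factors EEF1A1 (0.022) and EEF2 (-0.030) lay close to 0 on either side.

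The initiation factors were below 0 in 25 of 28 genes, with a median of -0.086, against 65.2% of the non-ribosomal genes at the members' levels. The median was -0.17 after median centring and -0.050 after removal of the trend on level. In the latter setting 21 of 28 were below 0, against 692 of the 1295 non-ribosomal genes at the members' levels. EIF4EBP1, which holds the cap-binding factor in check and is itself a target of TOR, had 10.33 on rLCC111 and 10.65 on BSA, a difference of -0.32. EIF4G1, the scaffold of the cap-binding complex, had 11.70 on rLCC111 and 12.01 on BSA, a difference of -0.31, and EIF2S2 had one of -0.27. The 3 genes above 0 were EIF4A2 (0.13), EIF2B5 (0.12) and EIF4EBP2 (0.022).

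Genes that build the ribosome had lower medians than its proteins. Of 53 ribosome assembly factors 47 were below 0 and 5 above, with a median of -0.15. PES1, part of a complex that processes large subunit ribosomal RNA, had 9.73 on rLCC111 and 10.13 on BSA, a difference of -0.40. RIOK2, a kinase of late small subunit maturation, had 9.74 on rLCC111 and 10.13 on BSA, a difference of -0.40, and EFL1, which releases a factor from the maturing large subunit, had one of -0.36. The highest were HEATR3 (0.085), GNL2 (0.070) and UTP20 (0.041). Of 14 genes of RNA polymerase I and its initiation factors 12 were below 0, with a median of -0.13, led by TAF1A (-0.34), POLR1E (-0.25) and POLR1H (-0.22), while the largest subunit, POLR1A, had 10.47 on rLCC111 and 10.34 on BSA, a difference of 0.13. The median stayed below 0 in all 4 settings of scale for both lists, between -0.23 and -0.11 for the assembly factors and between -0.21 and -0.10 for RNA polymerase I. These genes have weaker signals than the ribosomal proteins, with a median level of 10.60 for the assembly factors. The 4658 non-ribosomal genes at levels of 9 to 11 had a median of -0.022, with 55.5% below 0.

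**Figure D5:**
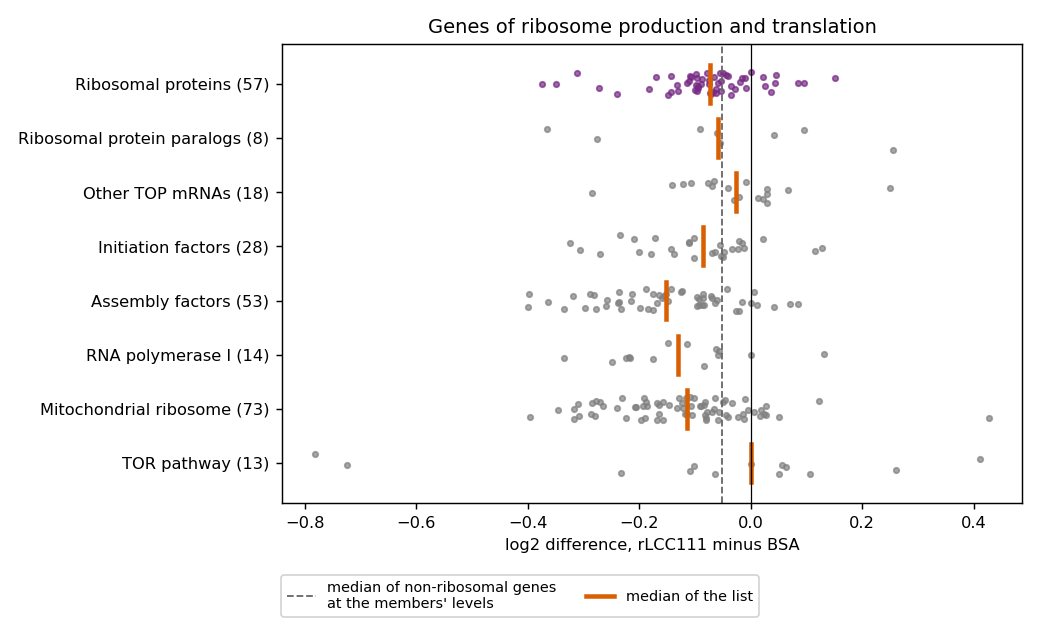
Log2 difference, rLCC111 minus BSA, of ribosomal protein genes and of genes of ribosome production and translation, each point 1 gene on 1 array per coating; vertical position within a list is random, the orange bar is the list's median and the dashed line is the median of the non-ribosomal genes at the members' levels (-0.051). Assembly factors (-0.15), RNA polymerase I (-0.13) and mitochondrial ribosomal proteins lie furthest to the left, and the 13 genes of the TOR pathway centre on 0 with the widest scatter.

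In the TOR pathway that acts on ribosomal protein mRNAs, 6 of 13 genes were below 0, 6 above and 1 equal. Across all genes 46.6% were below 0 and 46.2% above. The lowest were SESN2 and DDIT4, both stress-induced inhibitors of TOR complex 1. SESN2 had 9.12 on rLCC111 and 9.90 on BSA, a difference of -0.78 (0.582-fold). DDIT4 had 7.17 on rLCC111 and 7.89 on BSA, a difference of -0.72 (0.606-fold). RHEB, the GTPase that activates the complex, followed at -0.23. DEPTOR, another TOR inhibitor, had the highest difference, 0.41, but its levels of 6.52 on rLCC111 and 6.11 on BSA were both below the limit of silent genes. Among genes above that limit RPS6KB1, the S6 kinase, had 9.80 on rLCC111 and 9.54 on BSA, a difference of 0.26, followed by TSC2 at 0.11 and TSC1 at 0.064. None of these genes or of the genes in the lists of ribosome production and translation above was 2-fold different. Such a change was rare over all genes too, at 0.239% in the higher and 0.0869% in the lower direction.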

How the data were processed

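Total RNA of the 2 cultures was hybridised to GeneChip Human Gene 1.0 ST arrays. Per the labels, the authors made gene signals by RMA (background correction, normalization and summary over probes) in Affymetrix Expression Console (version not given in the sources used here), and deposited values were taken as log2 levels from their range of 2.79 to 13.92. Array signals can saturate near the top of the range, and how far this happened here was not tested. Of 33297 sequences, 19460 carried 1 gene symbol in the platform annotation, 1754 several and 12083 none. No sample column was left unused.

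Differences, medians and counts were computed in Python 3.11.15 with pandas 2.3.3, numpy 2.4.6 and statsmodels 0.14.6 (lowess, span 0.2, 3 iterations), and tested on simulated data. The methods' limma test was not repeated because 1 array per coating leaves no spread. Precision is limited by this number. The members, gene lists and comparisons were chosen with earlier results of these data known. Genes were named as the largest differences in each direction (5 per subunit, 3 per list, among genes above the limit of silent genes on the brighter array, and 3 per pseudogene or snoRNA set), the 5 brightest and dimmest members, those of fixed working sites, all paralogs and those with several sequences. The non-ribosomal genes named at high level, DEPTOR, EEF1A1 and EEF2 were picked with their values in view. So were the RPL21, RPS18, RPL10, RPL17, RPL7A and RPS3A sequences with several symbols. The same holds for the cell type markers that were named. Other settings covered the scaling, the choice of sequence, a filter at the limit of silent genes, bright members left out and ribosome components under other symbols.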

Additional observations from a re-analysis of the deposited data

How the results depend on the processing

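Of 71 values of 9 results under the alternatives, 61 stayed within 1.5 times the reported value and 10 did not; 0 changed sign. Median centring moved every difference by the same amount and gave medians of -0.15 for all ribosomal protein genes, -0.14 for the large subunit, -0.17 for the small subunit and -0.13 for the non-ribosomal genes at their levels. Removal of the trend on level gave -0.038 for all members, -0.032 for the large subunit and -0.0083 for the non-ribosomal genes. Quantile normalization gave -0.028 for the non-ribosomal genes and a large minus small subunit difference of 0.010, which was 0.011 without the members at a level of 13 or more. The count of members 2-fold different was 0 under each alternative. No paired analysis was possible because there is 1 array per coating, and for the same reason no replicate could be left out. A difference between 2 cultures holds the coating, the culture and the array together, and these cannot be told apart. Most members have signals near the top of the range, and saturation there was not tested.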

Other observations

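A sequence of their own was measured for 19 pseudogenes of ribosomal proteins. Of these, 10 were below 0 and 9 above, against 46.6% and 46.2% of all genes. The pseudogenes had a median difference of -0.012 and an interquartile range of 0.191, and 13 exceeded the limit of silent genes on both arrays. RPL23AP32 had 7.81 on rLCC111 and 6.88 on BSA, a difference of 0.93 (1.90-fold), against -0.059 for RPL23A. RPL21P44 had a difference of 0.38, with both arrays below the limit of silent genes, and RPS14P3 one of 0.21. The lowest were RPS6P6 (-0.31), RPL13AP3 (-0.28) and RPL23P8 (-0.27), of which RPS6P6 was below the limit of silent genes on both arrays. Of the 10 pseudogenes whose parent gene was a member, 4 had the sign of the parent. Pseudogenes are near copies of their parents, and how far their probes also take up the parent mRNA was not tested.

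Mitochondrial ribosomal proteins, which translate the few mRNAs of the mitochondrial genome, were below 0 in 64 of 73 genes, with a median difference of -0.11. Their median level was 10.14. Across all genes 46.6% were below 0, as were 55.5% of non-ribosomal genes at levels of 9 to 11, with a median of -0.022. Of the 73 genes 0 were 2-fold different, against 0.239% of all genes in the higher and 0.0869% in the lower direction. MRPL58 had 9.97 on rLCC111 and 10.36 on BSA, a difference of -0.40, followed by MRPS17 (-0.35) and MRPS27 (-0.32). MRPS25 had 9.71 on rLCC111 and 9.29 on BSA, a difference of 0.43, followed by MRPS21 (0.12) and MRPL55 (0.051). The median of the list lay between -0.19 and -0.091 under the 4 settings of scale.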
